A study of Mus musculus with 96 samples.

Results

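Single embryos collected at 0 h after fertilization were compared with oocytes, to ask which messages differ around fertilization in the mouse. The comparison took every library labelled as 0 h (n = 5) and every library labelled as oocyte (n = 8), which is 13 of the 96 libraries of the series. The series followed C57BL/6J embryos at short intervals through the first cleavage. The 0 h embryos came from C57BL/6J females superovulated with PMSG and, 46 h later, hCG, and mated with C57BL/6J males. Collection began 12 h after hCG, so that 0 h names the first collection time. The oocytes were of the same strain. Their labels give neither a meiotic stage nor a time after hCG. Per the labels, both kinds of sample were freed of cumulus cells with hyaluronidase in M2 medium, cultured in KSOM and left untreated. Embryos of 0 h to the late 2-cell stage went through cDNA synthesis as 1 cohort, and the oocytes went through it as a batch of their own. Batch and group therefore cannot be told apart in any result below. Nothing in the labels says which samples came from the same female, so the p-values measure the spread between single oocytes or embryos.

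A growing mouse oocyte transcribes and stores the messages that it will need until the embryonic genome is switched on. Around meiotic maturation and fertilization, levels are set in the near absence of transcription by the poly(A) tail. Stored messages that carry a cytoplasmic polyadenylation element (CPE), bound by CPEB1, gain a long tail and are translated, while many messages of oocyte growth lose theirs and are destroyed through the CCR4-NOT deadenylase, which BTG4 recruits. The libraries were made with SMART-Seq v4, which primes cDNA on poly(A) tails. In every result below, the abundance of a message and the length of its tail cannot be told apart.

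Gene counts per library ranged from 1049267 to 1793532 at 0 h and from 565920 to 2732505 in oocytes. The median correlation of a 0 h library with the other 0 h libraries was 0.916 to 0.932, and that of an oocyte with the other oocytes was 0.937 to 0.962. Between the groups it was 0.813 to 0.854. Levels are CPM, a gene's counts scaled to 1000000 gene counts per library. Repeat families took 3.64 to 4.80% of all counts at 0 h and 4.22 to 5.82% in oocytes. The reads carry no molecular identifiers, so the spread between libraries serves as the error unless a counting interval is named.

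The labels were checked against marker genes. All 14 oocyte-defining markers on the list were tested, and their summed level was 27169 to 31484 CPM, median 29619.7 CPM, at 0 h against 15608 to 20598 CPM, median 17409 CPM, in oocytes. Cumulus and granulosa markers summed to 181 to 1004 CPM, median 249 CPM, at 0 h against 172 to 1227 CPM, median 732 CPM, in oocytes. Of these 26 genes 9 passed the filter on low counts, while Amh, Foxl2 and Pgr were at 0 in all 13 libraries. Blood and oviduct markers summed to 67.6 to 2498 CPM, median 99.02 CPM, at 0 h against 59.1 to 1099 CPM, median 117.4 CPM, in oocytes. The sum of 2498 CPM belonged to 0 h embryo 1, in which the globin message Hba-a1 had 1044 CPM. Embryo 2 had 162 CPM of Hba-a1, and embryos 3, 4 and 5 had 1.97, 0.558 and 7.20 CPM. Embryo 5 carried the highest cumulus sum at 0 h, and results were therefore also computed with embryos 2, 3 and 4 alone. Sperm and spermatid markers summed to 72.02 to 169 CPM, median 129.4 CPM, at 0 h against 79.6 to 125.5 CPM, median 87.8 CPM, in oocytes, almost all of it from Odf2 and Tuba3a. Tuba3a (1.04 ± 0.28 on the log2 scale, adjusted p = 0.00458) was higher at 0 h, but it is an alpha-tubulin with near-identical copies. The protamine Prm3 and the transition proteins Tnp1 and Tnp2 were at 0 in all 13 libraries, and Prm1 and Prm2 were at 2.70 CPM or less at 0 h and 3.26 CPM or less in oocytes. The part of such messages in the results was not tested.

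Of 9561 genes that passed the filter on low counts, edgeR's quasi-likelihood F test called 2417 (25.3%) higher at 0 h and 1957 (20.5%) lower, at an adjusted p of 0.05. The median log2 change over all genes tested was 0.03. Every embryo lay above every oocyte in CPM for 1256 genes (13.1%), and under every oocyte for 879 genes (9.19%). When the test asked for a change of more than 2-fold, 664 genes (6.94%) were higher and 212 (2.22%) lower. These shares are the background for the counts of every gene group below. In 1 fit of all 96 libraries, which shares 1 estimate of the spread over all stages, 944 genes were higher and 694 lower, and counts from that fit are given where they move a group's count by over 1.5 times. No library was left out of that fit, and 1 morula in it had 10614 gene counts, against a median of 2101302 over the 96 libraries. The part of such libraries in the lost calls was not tested.

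**Figure D1:**
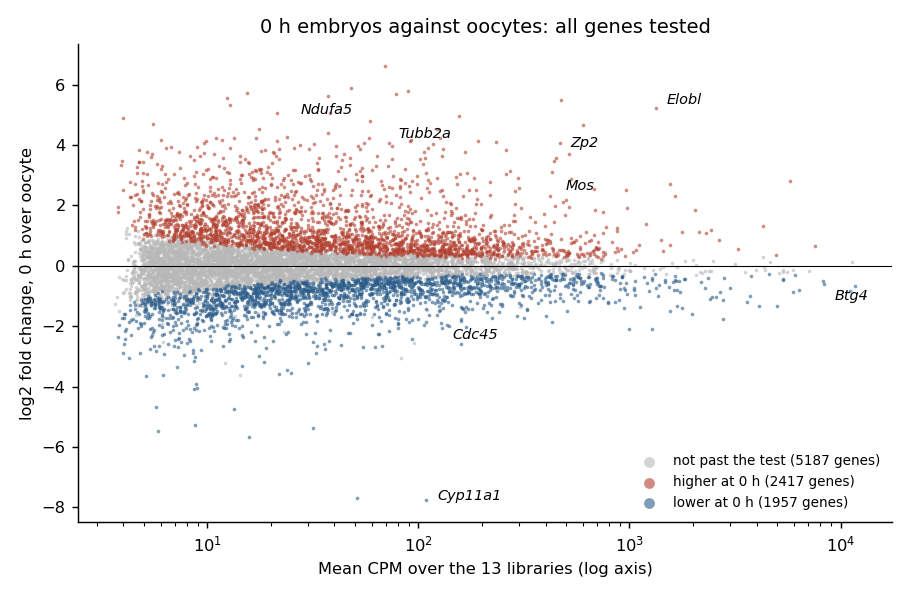
log2 fold change of 0 h over oocytes (y axis) against the mean CPM over the 13 libraries (x axis, log scale), 1 point for each of the 9561 genes tested. Red points (2417) were higher and blue points (1957) lower at 0 h, grey points did not pass the test, with Elobl, Ndufa5, Mos and Zp2 among the higher genes and Cdc45, Btg4 and Cyp11a1 among the lower.

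Poly(A) control reads short sequences near the 3′ end of a message. A CPE was counted where TTTTAT or TTTTAAT stood on the sense strand in the last 150 bases of the annotated 3′ UTR, and a polyadenylation hexamer where AATAAA or ATTAAA stood in the last 40 bases. A CPE was held by 22.0% of all 20305 annotated windows and a hexamer by 72.97%. The sites are 30 bases each on GRCm38 (mm10), from GENCODE M21 transcripts, 5′ to 3′ on the sense strand, with the hexamer and, where it fits in the 30 bases, the nearest upstream CPE in capitals. The 2 motifs can share bases. The first 5 belong to messages that were lower at 0 h and carry a CPE within 20 bases of the hexamer.
Dcp1a (chr14:30527011-30527040, plus strand): aaatatatttTTTTAATAAAatttcaaaac
Cnot7 (chr8:40493036-40493065, minus strand): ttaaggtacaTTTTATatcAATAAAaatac
Cdc45 (chr16:18780457-18780486, minus strand): actatatggtTTTTAATAAAatgtttgatg
Med31 (chr11:72211729-72211758, minus strand): ggcaaattTTTTATtAATAAAttatttcta
Nlrp4f (chr13:65177125-65177154, minus strand): tgttttgtgTTTTATATTAAAgaatagtag
The next 3 carry a CPE as close, or nearly so, and were higher at 0 h.
Bub1b (chr2:118641556-118641585, plus strand): cactgtgtaTTTTATAATAAAatagttttt
Zc3h13 (chr14:75344393-75344422, plus strand): gctattttatTTTTAATAAAtgtatgttcc
Mettl14 (chr3:123368312-123368341, minus strand): TTTTATtttgctataacttttctAATAAAa
The last 5 were higher at 0 h with no CPE in these letters within the window, apart from Plat, whose nearest CPE starts 60 bases before the hexamer, outside the stretch shown.
Mos (chr4:3870661-3870690, minus strand): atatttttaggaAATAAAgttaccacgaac
Plat (chr8:22782804-22782833, plus strand): ctgtacttaaatAATAAAttcagaggtatt
Ndufa5 (chr6:24518668-24518697, minus strand): attaaatgtgcaATTAAAtgctctgtgatg
Cox6c (chr15:35931985-35932014, minus strand): atagtttctttcAATAAAcagtaattatat
Uqcr11 (chr10:80403005-80403034, minus strand): gatgggtgcagcATTAAAccttattcttat
These sites are examples, all taken from genes with a hexamer, and their numbers show no share of either direction. Among them a CPE next to the hexamer stands in messages of both directions. Mettl3 and Cnot2, whose sites are not shown, have a hexamer with no CPE in the window and were lower. The counts over all genes are given further on.

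Messages known in the mouse to gain poly(A) or translation at maturation went both ways. The list held 25 such messages, all of which were tested: 7 were higher at 0 h, 10 were lower and 8 did not pass the test. The median log2 change was -0.28. Their summed level was 26772 to 32071 CPM, median 28454 CPM, at 0 h and 35631 to 39643 CPM, median 37457 CPM, in oocytes. The sums of the groups thus did not overlap. Abundant messages weigh most in such sums, among them Btg4 and Spin1, both lower at 0 h. In the fit of all 96 libraries 3 were higher (Mos, Plat and Kif11) and 1 was lower (Dcp1a), while Btg4, Dazl, Spin1, Slbp, Il7, Bub1b, Tpx2 and Itpr1 were not called (adjusted p = 0.107 for Tpx2 to 0.449 for Btg4).

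Mos, the kinase that holds the egg at metaphase of the second meiotic division through the MAP kinase pathway, changed most in this list (ENSMUSG00000078365.5, chr4:3870657-3872105). It had 1052, 963, 966, 730.4 and 966 CPM in the 5 embryos, against 43.96 to 190.5 CPM around a median of 106.1 CPM in oocytes. Each embryo was above every oocyte, at a log2 change of 3.10 ± 0.26 (SE; adjusted p = 1.36e-07). Plat, the tissue-type plasminogen activator and a classical case of cytoplasmic polyadenylation in mouse oocytes, had 1652, 1817, 2006, 1932 and 2286 CPM at 0 h, against 240.5 to 478 CPM around a median of 377 CPM in oocytes (2.50 ± 0.15, adjusted p = 6.5e-12). Its groups did not overlap either. Bub1b, the spindle checkpoint kinase BUBR1, had 1072, 1177, 974, 885 and 827 CPM at 0 h, against 345 to 538 CPM around a median of 512 CPM in oocytes (1.03 ± 0.11). The spindle motor gene Kif11 (55.4 CPM at 0 h and 29.5 CPM in oocytes, log2 change 0.95), the spindle assembly factor gene Tpx2 (568.1 CPM at 0 h and 398 CPM in oocytes, log2 change 0.54) and Itpr1, the calcium channel that answers the sperm signal (80.6 CPM at 0 h and 52.2 CPM in oocytes, log2 change 0.65), were also higher without overlap. Pan2, a deadenylase subunit, was higher by 0.36 ± 0.12 on the log2 scale (adjusted p = 0.0164), a call that was lost without 0 h embryo 3 (adjusted p = 0.126) or 4 (adjusted p = 0.145).

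On the lower side were several well-studied stored messages. Btg4, the adaptor that brings CCR4-NOT to maternal messages, had 5406, 5264, 5803, 8138 and 6657 CPM at 0 h, against 8816 to 10359 CPM around a median of 9578 CPM in oocytes. Every embryo lay under every oocyte (-0.59 ± 0.12, adjusted p = 0.000297). Dazl, an RNA-binding activator of translation, had 1843, 1715, 1592, 1534 and 1377 CPM at 0 h, against 2320.1 to 3159 CPM around a median of 2593 CPM in oocytes (-0.72 ± 0.11). Spin1, a chromatin reader needed for meiotic resumption, had 4000.1, 4022, 4650.0, 4655 and 4469 CPM at 0 h, against 7236 to 8408 CPM around a median of 7588 CPM in oocytes (-0.79 ± 0.10). For both genes the groups did not overlap. Dcp1a, a cofactor of the decapping enzyme, was lowest relative to oocytes, with 527, 565, 382, 376 and 374 CPM at 0 h against 878 to 1018 CPM around a median of 926 CPM in oocytes (-1.06 ± 0.11, adjusted p = 3.14e-08). Slbp, which binds the stem-loop of histone messages (3165 CPM at 0 h and 4124 CPM in oocytes, log2 change -0.35), and the cytokine gene Il7 (196 CPM at 0 h and 262 CPM in oocytes, log2 change -0.39) were lower without overlap. Cnot7, a catalytic deadenylase of CCR4-NOT, ranged over 784 to 1645 CPM at 0 h and 1486 to 1911 CPM in oocytes, so its groups overlapped although it passed the test (-0.55 ± 0.15). Rgs2, a regulator of G protein signalling (-0.39), Cdc6, a replication licensing factor (-0.70), and the kinase gene Aurka (-0.29) were lower with overlap, and Aurka was not called without oocyte 5 (adjusted p = 0.0519).

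The 8 messages past no threshold included the classical CPE message Ccnb1, cyclin B1, with 1524, 1587, 2049, 2201 and 2413 CPM at 0 h against 1751 to 3013 CPM around a median of 2359 CPM in oocytes (-0.24 ± 0.13, adjusted p = 0.127). Without embryo 4 or embryo 5 its adjusted p was 0.0361 or 0.0478. Wee2, the kinase that keeps CDK1 inhibited in the oocyte (-0.23 ± 0.10), Mad2l1, a spindle checkpoint protein (-0.28 ± 0.13), Orc6 of the origin recognition complex (-0.29 ± 0.12) and Tex19.1 (-0.36 ± 0.17) had values under 0 that passed the threshold under some other scalings or filters and when 1 library was left out. These were oocyte 8 or embryo 4 for Wee2, embryo 4 for Mad2l1, oocyte 1, 6 or 7 or embryo 4 for Orc6, and oocyte 8 or embryo 2 or 5 for Tex19.1. The decapping enzyme gene Dcp2 (-0.16 ± 0.16) ranged over 83.6 to 205 CPM at 0 h and 127.3 to 159 CPM in oocytes, and without embryo 2 its adjusted p was 0.0304. Fbxo43, the inhibitor of the anaphase-promoting complex that maintains egg arrest (123.7 CPM at 0 h and 123.3 CPM in oocytes, log2 change 0.02), and Ewsr1 (33.6 CPM at 0 h and 31.2 CPM in oocytes, log2 change 0.12) had overlapping groups.

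Messages of oocyte growth were mostly higher at 0 h. All 11 on the list were tested: 8 were higher, 2 lower and 1 did not pass, with a median log2 change of 0.66 (4 higher and 2 lower in the fit of all 96 libraries, where Zp1, Smc4, H1foo and Padi6 were not called). Zp2, a protein of the egg coat, had 586, 494, 591, 1359.9 and 2080.4 CPM at 0 h, against 66.2 to 112.3 CPM around a median of 89.7 CPM in oocytes (3.56 ± 0.35, adjusted p = 3.13e-06). Embryos 4 and 5 were higher than the other embryos, and all 5 were above every oocyte. Zp3, the coat protein that sperm meet, had 365, 549.9, 559, 671 and 689 CPM at 0 h, against 49.8 to 100.9 CPM around a median of 67.6 CPM in oocytes (3.05 ± 0.17). Zp1, the cross-linker of the coat, was higher by less (213 CPM at 0 h and 116.5 CPM in oocytes, log2 change 0.91). Ooep, of the subcortical maternal complex (1319 CPM at 0 h and 389 CPM in oocytes, log2 change 1.79), H1foo, the oocyte linker histone (9699 CPM at 0 h and 6219 CPM in oocytes, log2 change 0.66), the condensin gene Smc4 (1749.9 CPM at 0 h and 1259 CPM in oocytes, log2 change 0.49) and Ybx2, which masks stored messages (28.1 CPM at 0 h and 4.74 CPM in oocytes, log2 change 2.56), did not overlap between groups. Padi6, a component of cytoplasmic lattices, passed the test (0.49 ± 0.18, adjusted p = 0.0339), but not without oocyte 2, 4, 5 or 8 or embryo 1, 2 or 5, nor with embryos 2, 3 and 4 alone (adjusted p = 0.344). Actb, beta-actin, went the other way with 112.3, 113.4, 135.1, 109.3 and 159 CPM at 0 h against 231 to 555 CPM around a median of 430.0 CPM in oocytes (-1.65 ± 0.19). Oog1, an oocyte gene of the PRAME family, was also lower (235 CPM at 0 h and 674 CPM in oocytes, log2 change -1.49). Gdf9, the growth factor through which the oocyte instructs granulosa cells, had 3591 to 4668 CPM at 0 h and 3222 to 5663 CPM in oocytes (-0.05 ± 0.12, adjusted p = 0.746).

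**Figure D2:**
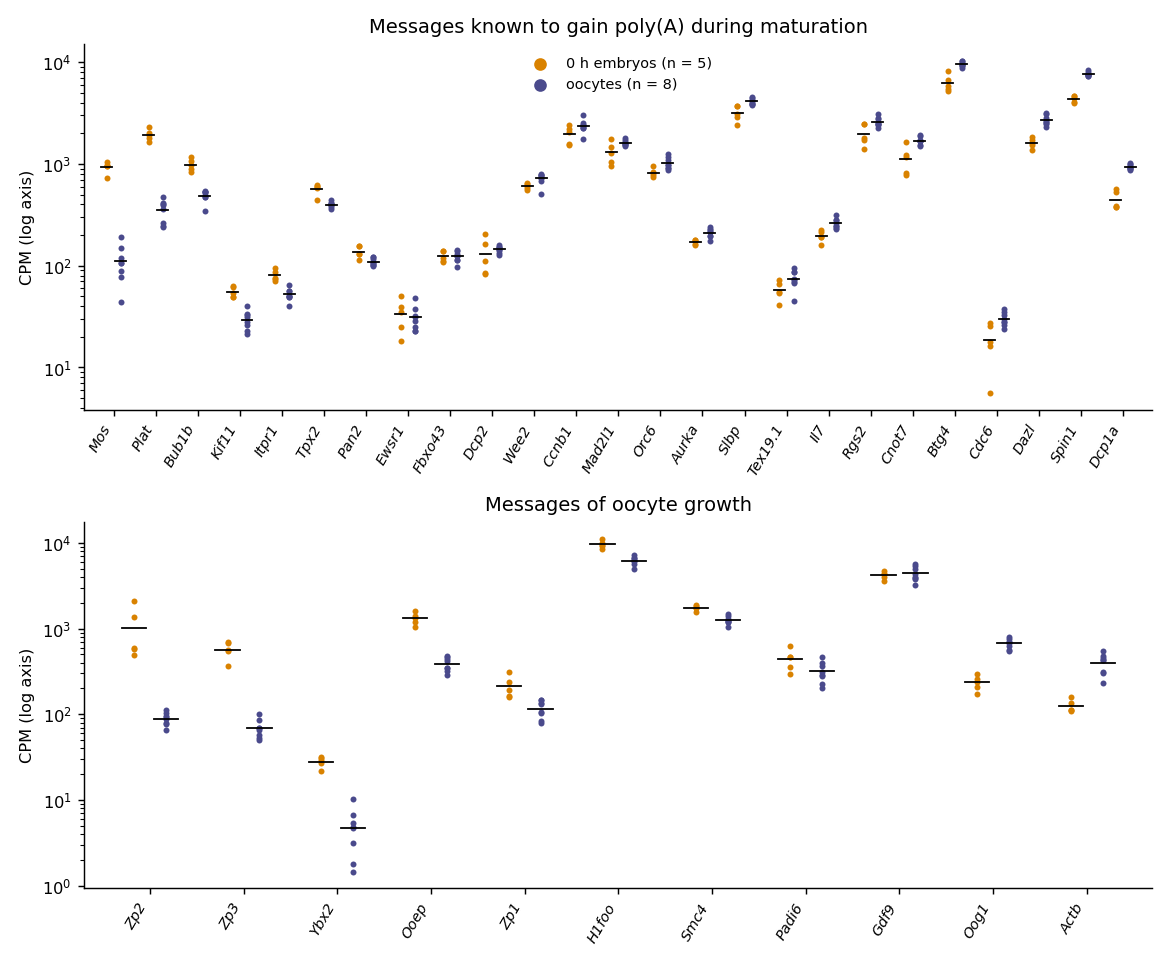
CPM (y axis, log scale) of the 25 messages known to gain poly(A) or translation at maturation (top) and of 11 messages of oocyte growth (bottom). There is 1 point per library, with 0 h embryos (n = 5, orange) left of oocytes (n = 8, purple) and bars at the means. Genes run from the most positive to the most negative log2 change, and Mos, Plat, Zp2 and Zp3 show a gap between the groups while Btg4, Dazl and Spin1 show the opposite order.

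The machinery that lengthens, binds and removes tails was read from 5 lists, against a background of 45.7% of all genes called in either direction. Of 23 cytoplasmic polyadenylation factors tested (28 on the list), 7 were higher and 9 lower, with a median log2 change of 0.05 that fell under 0 in 8 of the alternatives. Papola, the main poly(A) polymerase, had 223, 251, 262, 249 and 247 CPM at 0 h, against 58.3 to 96.8 CPM around a median of 80.6 CPM in oocytes, with no overlap (1.70 ± 0.12). Cpeb1, the CPE-binding protein itself, was also higher (153 CPM at 0 h and 78.7 CPM in oocytes, log2 change 0.98). Lower were Cstf3 (10.1 CPM at 0 h and 23.8 CPM in oocytes, log2 change -1.21) and Cstf1 (42.7 CPM at 0 h and 71.7 CPM in oocytes, log2 change -0.74) of the cleavage stimulation factor, and the poly(A) polymerase gene Papolg (35.6 CPM at 0 h and 62.6 CPM in oocytes, log2 change -0.79). In the fit of all 96 libraries 4 were higher and 1 was lower, and Cpeb1, Cstf1 and Papolg were not called (adjusted p = 0.116, 0.0954 and 0.133).

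Poly(A)-binding proteins and their partners were higher in 7 of 10 tested and lower in 0, with a median log2 change of 0.39. Paip2, an inhibitor of poly(A)-binding protein, had 128.7, 229.7, 265, 382 and 385 CPM at 0 h, against 8.45 to 23.3 CPM around a median of 18.2 CPM in oocytes (4.03 ± 0.24, adjusted p = 8.25e-11). Its relative Paip2b (263 CPM at 0 h and 90.1 CPM in oocytes, log2 change 1.57) and Pabpc1l, the poly(A)-binding protein of oocytes and early embryos (26.1 CPM at 0 h and 5.34 CPM in oocytes, log2 change 2.32), did not overlap either. Paip1, an activator of translation that binds poly(A)-binding protein, was higher with overlap (578 CPM at 0 h and 407 CPM in oocytes, log2 change 0.52). The count lower was 1 without oocyte 4, embryo 1 or embryo 3, and the count higher was 4 with no filter on low counts. With all 96 libraries in the fit 3 were higher, where Paip1 was not called (adjusted p = 0.477).

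Of 22 genes of CCR4-NOT and other deadenylases tested (29 on the list), 8 were higher and 6 lower, with a median log2 change of -0.23. Cnot6l, a catalytic subunit, had 888, 790.1, 757, 705.9 and 693 CPM at 0 h, against 336 to 512 CPM around a median of 427 CPM in oocytes (0.87 ± 0.11). The scaffold-associated subunit gene Cnot9 (119.5 CPM at 0 h and 74.4 CPM in oocytes, log2 change 0.70), the poly(A)-specific ribonuclease gene Parn (26.5 CPM at 0 h and 10.3 CPM in oocytes, log2 change 1.31) and the CCR4-NOT recruiter Nanos1 (30.8 CPM at 0 h and 16.3 CPM in oocytes, log2 change 0.89) were higher. Nanos2 (23.7 CPM at 0 h and 70.9 CPM in oocytes, log2 change -1.57) and Cnot2 (96.6 CPM at 0 h and 195 CPM in oocytes, log2 change -0.99) were lower without overlap, beside Cnot7 and Btg4 above. In the fit of all 96 libraries 1 was higher and 4 were lower, and Cnot6l, Cnot9 and Nanos1 were not called (adjusted p = 0.0526, 0.0757 and 0.182).

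Among decapping and P-body genes 4 of 17 were higher and 6 lower. Ybx1, a cold-shock protein that packages messages, had 141, 131.5, 108.2, 142 and 177 CPM at 0 h, against 214 to 327 CPM around a median of 302 CPM in oocytes (-1.05 ± 0.12). The scavenger decapping enzyme gene Dcps (6.64 CPM at 0 h and 27.5 CPM in oocytes, log2 change -2.01) and Lsm14b (90.3 CPM at 0 h and 126.9 CPM in oocytes, log2 change -0.47) were lower too, and Edc4, the scaffold of decapping, was higher (195 CPM at 0 h and 142 CPM in oocytes, log2 change 0.48). Of 16 genes of the RNA exosome and terminal uridylation tested, 5 were higher and 1 lower. The higher ones included Exosc9 (75.8 CPM at 0 h and 45.7 CPM in oocytes, log2 change 0.75), Exosc7 (147 CPM at 0 h and 91.5 CPM in oocytes, log2 change 0.72), Zfc3h1 (34.3 CPM at 0 h and 13.8 CPM in oocytes, log2 change 1.31) and Rbm7 (154 CPM at 0 h and 86.6 CPM in oocytes, log2 change 0.86), and the lower one was the core subunit gene Exosc4 (7.33 CPM at 0 h and 20.6 CPM in oocytes, log2 change -1.37). In the fit of all 96 libraries these counts were 1 and 2 for decapping and 2 and 1 for the exosome, with 2 of the exosome list lower without embryo 3 or 4, and Ybx1, Lsm14b, Edc4, Exosc7 and Rbm7 were not called.

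The chemistry that marks messages with N6-methyladenosine (m6A), which is read by decay factors of the YTH family, leaned to the higher side. Of 18 writers, erasers and readers tested (20 on the list), 11 were higher and 1 lower, with a median log2 change of 0.54. Zc3h13, a writer subunit, had 275, 288, 182, 142 and 189.9 CPM at 0 h, against 66.1 to 111.5 CPM around a median of 85.7 CPM in oocytes (1.32 ± 0.16). Mettl14, the partner of the catalytic subunit, had 35.8, 36.2, 12.5, 23.4 and 19.8 CPM at 0 h, against 1.86 to 8.16 CPM around a median of 5.23 CPM in oocytes (2.30 ± 0.29). The catalytic subunit gene Mettl3 itself was the lower one, with 20.1, 21.9, 17.7, 23.4 and 11.7 CPM at 0 h against 30.98 to 49.1 CPM around a median of 39.8 CPM in oocytes (-1.06 ± 0.20, adjusted p = 0.000124). Both genes of the writer core thus stood apart between the groups, in opposite directions. The readers Ythdc1 (160.3 CPM at 0 h and 93.5 CPM in oocytes, log2 change 0.80) and Ythdc2 (63.8 CPM at 0 h and 34.001 CPM in oocytes, log2 change 0.94) were higher. In the fit of all 96 libraries 4 were higher and 1 lower, and Ythdc2 was not called (adjusted p = 0.111).

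Nuclear genes of the respiratory chain were mostly higher at 0 h. Complex I, which feeds electrons from NADH into the chain, had 20 of 33 tested subunits higher and 2 lower (37 on the list), with a median log2 change of 1.75 that was 0.96 with no filter on low counts, and 19 were higher in the fit of all 96 libraries. Ndufa5 had 154, 119.1, 142, 158 and 151 CPM at 0 h, against 1.77 to 9.31 CPM around a median of 4.30 CPM in oocytes (4.80 ± 0.20, adjusted p = 5.46e-15). Ndufa1 had 239.7, 240.2, 213, 232 and 240.4 CPM at 0 h, against 14.1 to 32.5 CPM around a median of 19.2 CPM in oocytes (3.53 ± 0.15). The embryos of both genes were close together, and all were above every oocyte. Ndufa4 (637 CPM at 0 h and 84.7 CPM in oocytes, log2 change 2.91) and Ndufa11 (140.1 CPM at 0 h and 14.4 CPM in oocytes, log2 change 3.31) were likewise higher. Ndufa4 was counted on this list, although its protein is a subunit of complex IV. The 2 lower subunits were Ndufa10, with 229 to 385 CPM at 0 h against 444 to 547 CPM in oocytes (-0.83 ± 0.12), and Ndufs3, of the catalytic core, with overlapping groups (-0.93 ± 0.35, adjusted p = 0.0322). Ndufs3 was not called without oocyte 1 (adjusted p = 0.0619), oocyte 8 (adjusted p = 0.0586), embryo 1 (adjusted p = 0.0909) or embryo 2 (adjusted p = 0.078). Without embryo 5 the subunits called lower were 4.

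Complex III had 6 of 10 tested genes higher and 0 lower, at a median of 0.95 (3 and 0 in the fit of all 96 libraries, where Uqcrc2 was not called). Without oocyte 3 or embryo 5, 1 gene was lower. Uqcr11, a small subunit, had 203, 163, 155, 168 and 174 CPM at 0 h, against 4.69 to 16.7 CPM around a median of 10.2 CPM in oocytes (4.07 ± 0.23, adjusted p = 5.84e-13). Uqcrh (148 CPM at 0 h and 25.4 CPM in oocytes, log2 change 2.60) and Uqcr10 (82.4 CPM at 0 h and 13.8 CPM in oocytes, log2 change 2.58) showed the same order, and the core protein gene Uqcrc2 differed by less (499.5 CPM at 0 h and 313 CPM in oocytes, log2 change 0.69). Complex IV, cytochrome c oxidase, had 7 of 11 higher and 3 lower, at a median of 1.47. Cox6c had 372, 329.8, 374, 336 and 293 CPM at 0 h, against 24.7 to 61.9 CPM around a median of 37.1 CPM in oocytes (3.04 ± 0.15, adjusted p = 9.51e-14). Cox6a1 (235 CPM at 0 h and 23.5 CPM in oocytes, log2 change 3.38), Cox7a2 (352 CPM at 0 h and 62.6 CPM in oocytes, log2 change 2.52) and Cox6b1 (174 CPM at 0 h and 25.5 CPM in oocytes, log2 change 2.84) did not overlap either. Cox5a went against them with 70.9, 51.5, 81.3, 73.04 and 45.01 CPM at 0 h against 97.2 to 186 CPM around a median of 163 CPM in oocytes (-1.23 ± 0.18), as did Cox5b (27.4 CPM at 0 h and 57.5 CPM in oocytes, log2 change -1.02). For ATP synthase, which was not among the classes picked by share, 6 of 14 were higher and 1 lower, at a median of 0.63.

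The mitochondrial genome, whose messages encode the other subunits of the same complexes, went the opposite way. Of 12 genes tested 11 were lower at 0 h and 0 higher, at a median of -1.33. In every embryo its share of gene counts was under that of every oocyte, at 0.577 to 0.894% at 0 h and 1.39 to 1.96% in oocytes. mt-Co1 had 525.9, 1043, 758, 869 and 1139 CPM at 0 h, against 1801 to 3117 CPM around a median of 2778 CPM in oocytes (-1.59 ± 0.16). mt-Cytb had 1435, 1900.4, 1841, 2469 and 2807 CPM at 0 h, against 4769 to 5989.8 CPM around a median of 5405 CPM in oocytes (-1.32 ± 0.14). mt-Nd3 (48.5 CPM at 0 h and 191 CPM in oocytes, log2 change -1.97) and mt-Nd4l (61.05 CPM at 0 h and 219.7 CPM in oocytes, log2 change -1.83) stood apart as well. Mitochondrial messages have short tails of their own, added in the organelle, and a lower share of counts cannot be told apart from a lower efficiency of priming.

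The respiratory messages were shorter than most, and the part of transcript length in these changes was not tested. The median annotated transcript was 763 bases for the complex I genes tested, 1441.5 bases for complex III, 645 bases for complex IV and 2652 bases for all genes tested. Genes tested were also split by transcript length into 5 classes of equal size. In the shortest class (38 to 1251 bases) 29.8% were higher and 21.6% lower, at a median log2 change of 0.04. Cytosolic ribosomal proteins, with a median transcript of 946 bases, had 15 of 47 higher and 4 lower, at a median of 0.26. Mitochondrial ribosomal proteins had 19 of 62 higher and 10 lower, at 0.29. Of the complex I genes with a hexamer 7.7% (2 of 26) held a CPE, of those of complex III 0 of 7 and of those of complex IV 1 of 10, against 29.4% of all genes tested with a hexamer.

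**Figure D3:**
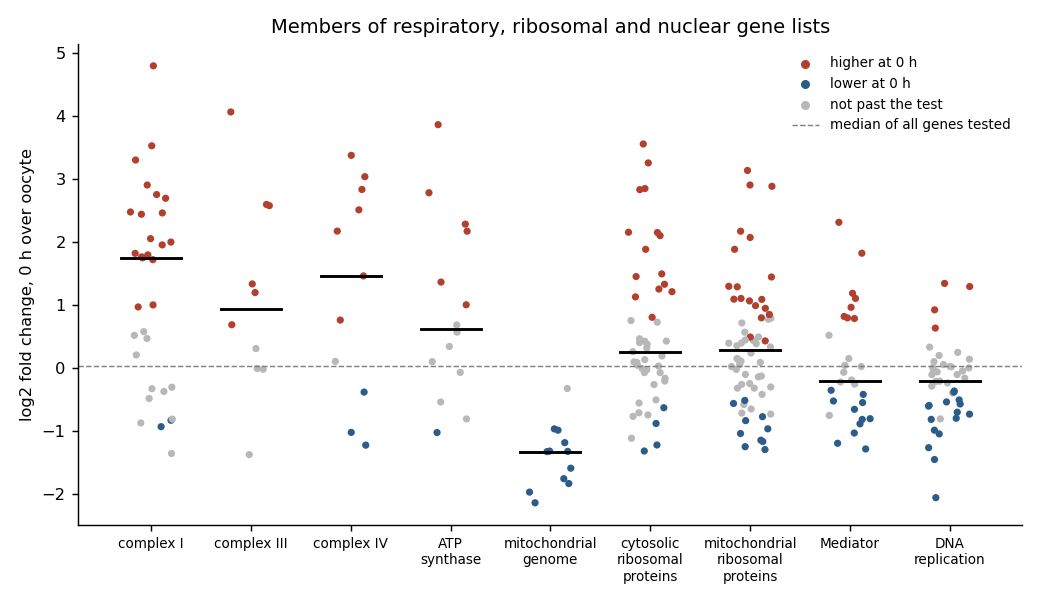
log2 fold change of 0 h over oocytes (y axis) of each tested member of 9 gene lists, coloured by call, with black bars at list medians and a dashed line at the median of all genes tested (0.03). Nuclear genes of complexes I, III and IV lie mostly above the line, whereas 11 of 12 genes of the mitochondrial genome lie lower and are called.

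Proteins of the egg coat and others that the oocyte secretes, among them the Zp genes above, were higher in 8 of 14 tested and lower in 0, at a median log2 change of 1.26 (7 higher in the fit of all 96 libraries). Without oocyte 2, 5 or 6 or embryo 3, 1 was lower. Bmp15, the partner of GDF9, had 3001, 2754, 2958, 3529.9 and 3793 CPM at 0 h, against 486 to 848 CPM around a median of 654 CPM in oocytes (2.32 ± 0.12, adjusted p = 8.18e-14). Astl, the cortical granule protease that cleaves ZP2 after fertilization, had 229, 279, 260.4, 225 and 285 CPM at 0 h, against 52.4 to 69.9 CPM around a median of 57.5 CPM in oocytes (2.13 ± 0.11). Of the 14 tested, 8 were higher without overlap between the groups, against 13.1% of all genes tested.

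The cytoskeleton split by family member. Tubulins had 10 of 20 tested genes higher and 7 lower, at a median of 0.71 that was 0.10 with no filter on low counts and 0.11 by DESeq2, which test more members (6 and 2 in the fit of all 96 libraries, where Tubb3 was not called). Tubb2a, a beta-tubulin, had 402, 394, 513, 468 and 489.7 CPM at 0 h, against 22.8 to 33.6 CPM around a median of 25.6 CPM in oocytes (4.13 ± 0.13, adjusted p = 1.16e-17). Tubb2b (64.5 CPM at 0 h and 4.26 CPM in oocytes, log2 change 4.00), Tuba1c (160.2 CPM at 0 h and 33.2 CPM in oocytes, log2 change 2.29) and Tuba1b (35.9 CPM at 0 h and 8.94 CPM in oocytes, log2 change 2.03) were higher too. Lower were Tubd1, delta-tubulin (4.12 CPM at 0 h and 24.7 CPM in oocytes, log2 change -2.48), and Tubb3 (183 CPM at 0 h and 299 CPM in oocytes, log2 change -0.69). Tubulin copies are alike in sequence, and counts split between them are uncertain. Kinesins and dyneins had 18 of 36 tested higher and 4 lower (61 on the list), at a median of 0.44 that was 0.24 with no filter and 0.23 by DESeq2 (7 and 2 in the fit of all 96 libraries). Kif2c, the microtubule depolymerase MCAK, had 109.8, 152, 129.9, 149.98 and 164 CPM at 0 h, against 15.9 to 36.6 CPM around a median of 22.1 CPM in oocytes (2.56 ± 0.17). Dynll1, a dynein light chain (106.1 CPM at 0 h and 27.2 CPM in oocytes, log2 change 2.05), Dynlt1a (35.7 CPM at 0 h and 6.34 CPM in oocytes, log2 change 2.53), which has near-identical copies, and the chromokinesin gene Kif4 (258 CPM at 0 h and 117.9 CPM in oocytes, log2 change 1.15) were higher without overlap. Kif17 (59.4 CPM at 0 h and 136.5 CPM in oocytes, log2 change -1.19) and the dynactin gene Dctn6 (4.87 CPM at 0 h and 20.8 CPM in oocytes, log2 change -2.01) were lower without overlap. Chaperonin and prefoldin, which fold actin and tubulin, had 7 of 13 higher and 2 lower, at a median of 0.51 (3 and 0 in the fit of all 96 libraries, where Tcp1, Cct8 and Cct6a were not called). Pfdn5 had 304, 304, 339.8, 347 and 321 CPM at 0 h, against 64.9 to 132.9 CPM around a median of 95.7 CPM in oocytes (1.74 ± 0.14). Cct5 (188 CPM at 0 h and 73.4 CPM in oocytes, log2 change 1.38), Pfdn2 (142 CPM at 0 h and 64.2 CPM in oocytes, log2 change 1.16) and Tcp1 (141 CPM at 0 h and 89.9 CPM in oocytes, log2 change 0.67) were also higher. The calls of Cct8 (-0.28 ± 0.11) and Cct6a (-1.39 ± 0.51) on the lower side were lost without any 1 of embryos 1, 2 and 3, and that of Cct8 also without oocyte 1, 3, 5, 6 or 7.

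Beside the mitochondrial genome and the tubulins, 6 more classes were among the 8 with the largest shares lower. Of 8 PRAME-like and oogenesin genes tested (16 on the list), 5 were lower and 0 higher, at a median of -0.50 (2 and 0 in the fit of all 96 libraries, where Oog4 and Pramef12 were not called). Oog4 had 334, 423, 567, 604 and 574 CPM at 0 h, against 732 to 1352 CPM around a median of 1193 CPM in oocytes (-1.15 ± 0.17). Pramef8 (9.73 CPM at 0 h and 27.9 CPM in oocytes, log2 change -1.46) and Pramef12 (71.5 CPM at 0 h and 103.8 CPM in oocytes, log2 change -0.51) were lower as well, and members of this family share long stretches of sequence. Of 17 peroxisome genes tested, 8 were lower and 1 higher, at a median of -0.43 (2 and 0 in the fit of all 96 libraries, where Pex13 and Pex26 were not called). Pex11a, which drives peroxisome division, had 85.98, 90.5, 70.2, 51.3 and 47.7 CPM at 0 h, against 136.04 to 184 CPM around a median of 169 CPM in oocytes (-1.24 ± 0.15). The phytanic acid enzyme gene Phyh (6.68 CPM at 0 h and 18.4 CPM in oocytes, log2 change -1.40) and the import gene Pex13 (261 CPM at 0 h and 339.6 CPM in oocytes, log2 change -0.35) were lower. Without embryo 4 there were 2 higher. In the fit reported Pex26, an import gene, was the higher one (22.7 CPM at 0 h and 8.75 CPM in oocytes, log2 change 1.41).

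Mediator, the complex that links transcription factors to RNA polymerase II, had 11 of 28 tested genes lower and 8 higher, at a median of -0.21. Med27 had 1098, 1092, 1152, 1175 and 1155 CPM at 0 h, against 1870.2 to 2134 CPM around a median of 2054 CPM in oocytes (-0.82 ± 0.09, adjusted p = 1.64e-07). Med28 had 525, 695, 942, 1016 and 916 CPM at 0 h, against 133.4 to 208 CPM around a median of 164 CPM in oocytes (2.32 ± 0.16, adjusted p = 6.69e-11). Subunits of 1 complex thus differed in opposite directions with no overlap in either. Med22 (107.1 CPM at 0 h and 265 CPM in oocytes, log2 change -1.28), Med31 (239 CPM at 0 h and 421 CPM in oocytes, log2 change -0.80) and Med23 (23.7 CPM at 0 h and 44.8 CPM in oocytes, log2 change -0.89) were lower, and Med6 (254 CPM at 0 h and 72.4 CPM in oocytes, log2 change 1.83) was higher. In the fit of all 96 libraries 2 were lower and 2 higher, and Med27 and Med23 were not called (adjusted p = 0.0938 and 0.0606).

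DNA replication genes had 16 of 42 tested lower and 4 higher, at a median of -0.21 (3 and 0 in the fit of all 96 libraries, where Pole3, Mcm2 and Mcm6 were not called). Cdc45, a part of the replicative helicase, had 40.8, 49.6, 50.5, 39.6 and 34.2 CPM at 0 h, against 152 to 216 CPM around a median of 175 CPM in oocytes (-2.06 ± 0.14, adjusted p = 3.26e-11). Pole3 (179 CPM at 0 h and 317 CPM in oocytes, log2 change -0.80) and Pola2 (14.8 CPM at 0 h and 31.5 CPM in oocytes, log2 change -1.05), of the polymerases, were lower without overlap. The clamp loader gene Rfc3 had 30.8, 16.2, 14.4, 16.2 and 10.8 CPM at 0 h, against 42.4 to 62.5 CPM around a median of 48.4 CPM in oocytes (-1.45 ± 0.21), with embryo 1 above the other embryos and under every oocyte. The helicase genes Mcm2 (134.4 CPM at 0 h and 88.3 CPM in oocytes, log2 change 0.64) and Mcm6 (40.1 CPM at 0 h and 17.03 CPM in oocytes, log2 change 1.30) were higher with overlap.

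Oocyte transcription factors had 7 of 19 lower and 4 higher, at a median of -0.15 (2 and 1 in the fit of all 96 libraries, where Tcl1, Sebox and Foxo3 were not called). Without embryo 1 or 2 the count higher was 2, and the median was -0.33 without embryo 1 and -0.33 with embryos 2, 3 and 4 alone. Klf17, a zinc-finger factor of the early embryo, had 392, 495, 435, 370.2 and 474 CPM at 0 h, against 680.4 to 1216 CPM around a median of 1019.7 CPM in oocytes (-1.20 ± 0.12). Pou5f1, the pluripotency factor OCT4, had 13.8, 17.2, 14.4, 7.25 and 9.90 CPM at 0 h, against 22.97 to 57.9 CPM around a median of 37.9 CPM in oocytes (-1.65 ± 0.24). Tcl1, a cofactor of AKT kinase that stood on this list (7419.5 CPM at 0 h and 13322 CPM in oocytes, log2 change -0.82), and the homeobox gene Sebox (51.2 CPM at 0 h and 112.5 CPM in oocytes, log2 change -1.11) were lower without overlap. Sall4 had 473, 459, 366, 309 and 293 CPM at 0 h, against 106.99 to 130.1 CPM around a median of 118.8 CPM in oocytes (1.69 ± 0.12), and Foxo3 was higher by less (85.4 CPM at 0 h and 51.98 CPM in oocytes, log2 change 0.74). Zinc-finger genes of the KRAB and other Zfp families, many of which silence retroelements, had 72 of 202 tested lower and 25 higher, at a median of -0.34 (31 and 6 in the fit of all 96 libraries). The list has 467 genes, and those not tested did not pass the filter on low counts. Zfp932 had 12.6, 10.5, 5.25, 12.3 and 22.5 CPM at 0 h, against 66.3 to 96.9 CPM around a median of 81.4 CPM in oocytes (-2.68 ± 0.23). Zfp958 (39.0 CPM at 0 h and 114.7 CPM in oocytes, log2 change -1.55) and Zfp978 (41.8 CPM at 0 h and 118.2 CPM in oocytes, log2 change -1.46) were lower, whereas Zfp281 (41.4 CPM at 0 h and 6.72 CPM in oocytes, log2 change 2.70) and Zbtb2 (28.8 CPM at 0 h and 8.04 CPM in oocytes, log2 change 1.88) were higher.

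**Figure D4:**
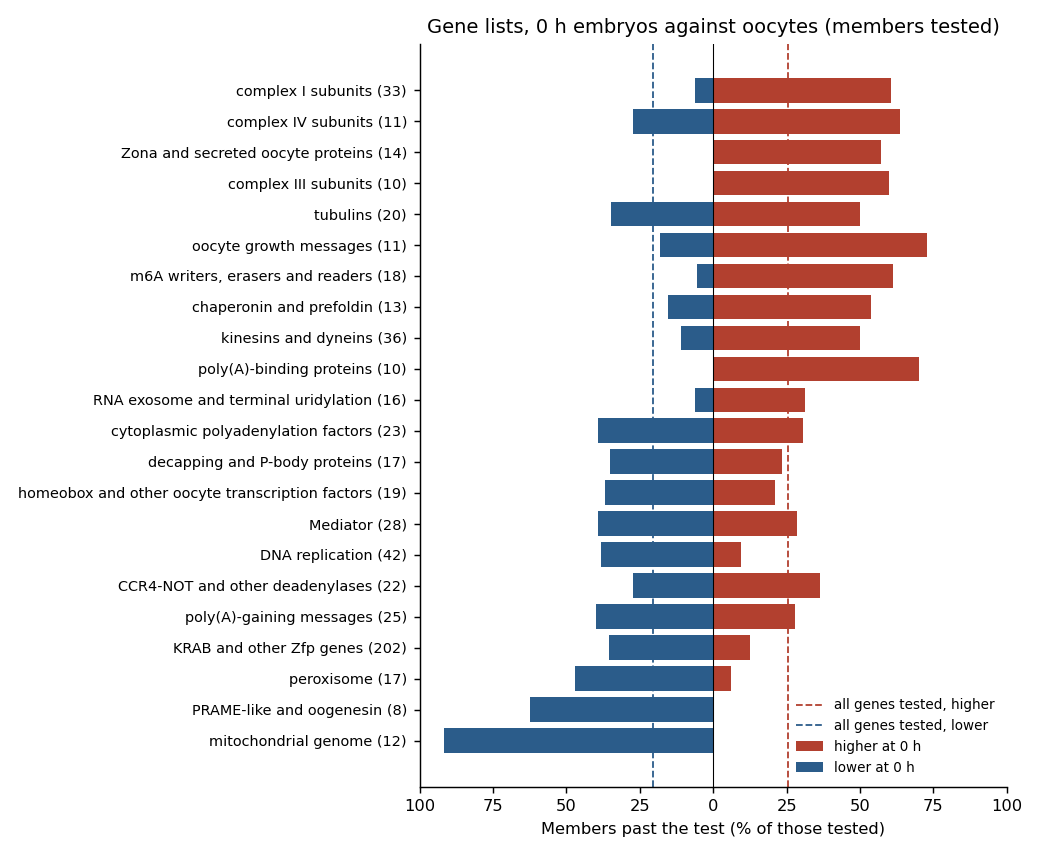
Percent of tested members higher at 0 h (red, to the right) and lower at 0 h (blue, to the left) for 22 of the lists, from the most positive median log2 change at the top to the most negative at the bottom, with the number tested in parentheses. Dashed lines mark the shares over all 9561 genes tested, 25.3% higher and 20.5% lower.

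Among abundant genes without overlap (a mean of at least 500 CPM in the higher group), the largest change was that of E330017A01Rik, with 789, 885, 989, 1744 and 1539 CPM at 0 h against 17.4 to 34.4 CPM around a median of 27.7 CPM in oocytes (5.48 ± 0.22). Elobl, an elongin B-like gene, had 2297, 3497, 3312, 3541 and 3911 CPM at 0 h, against 61.97 to 116.2 CPM around a median of 87.995 CPM in oocytes (5.25 ± 0.15, adjusted p = 6.88e-18). H3f3a, which encodes the replacement histone H3.3, had 1119, 1213, 1121, 1127 and 982 CPM at 0 h, against 53.02 to 83.7 CPM around a median of 65.4 CPM in oocytes (4.06 ± 0.12, adjusted p = 6.88e-18). The embryos of H3f3a agreed closely and stood far above the oocytes. The ubiquitin-conjugating enzyme gene Ube2t (1470.3 CPM at 0 h and 60.2 CPM in oocytes, log2 change 4.66), the calmodulin gene Calm2 (548 CPM at 0 h and 34.9 CPM in oocytes, log2 change 4.09), the ubiquitin ligase gene March7 (611 CPM at 0 h and 41.9 CPM in oocytes, log2 change 3.85), the glutathione transferase gene Gstm5 (1194 CPM at 0 h and 93.4 CPM in oocytes, log2 change 3.69), the inositol oxygenase gene Miox (991 CPM at 0 h and 91.6 CPM in oocytes, log2 change 3.46) and Tle6 of the subcortical maternal complex (596 CPM at 0 h and 68.9 CPM in oocytes, log2 change 3.15) completed the higher set with Zp2. At the lower end were CT010467.1 (419 CPM at 0 h and 1805 CPM in oocytes, log2 change -2.10), Gm839 (329 CPM at 0 h and 1415 CPM in oocytes, log2 change -2.08), Tor1a, a chaperone-like ATPase of the endoplasmic reticulum (162 CPM at 0 h and 597 CPM in oocytes, log2 change -1.86), Gm1965 (1105 CPM at 0 h and 3795 CPM in oocytes, log2 change -1.76), the mitochondrial ribosomal RNA gene mt-Rnr1 (172 CPM at 0 h and 544 CPM in oocytes, log2 change -1.66), Gm2042 (726 CPM at 0 h and 2087 CPM in oocytes, log2 change -1.49), Gm28661 (867 CPM at 0 h and 2326 CPM in oocytes, log2 change -1.41), and Nlrp4f (458 CPM at 0 h and 1238 CPM in oocytes, log2 change -1.40), beside mt-Co1 and Oog1 above. Of 54 unprocessed pseudogenes tested, 28 were lower and 1 was higher. Reads shared between copies make their levels uncertain.

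Among genes with a mean of at least 200 CPM in both groups, the least changed were Trappc2 (327 CPM at 0 h and 335 CPM in oocytes, log2 change 0.00), Bod1 (441 CPM at 0 h and 444 CPM in oocytes, log2 change 0.00), 1500011B03Rik (202 CPM at 0 h and 205 CPM in oocytes, log2 change 0.00), Gm37240 (214 CPM at 0 h and 218 CPM in oocytes, log2 change -0.01), Csnk1a1 (252 CPM at 0 h and 256 CPM in oocytes, log2 change -0.01) and Arpc1b (220.1 CPM at 0 h and 223 CPM in oocytes, log2 change 0.01). Of 17 markers of the program that opens with the embryonic genome 4 passed the filter on low counts, among which Tcstv1 (154 CPM at 0 h and 31.3 CPM in oocytes, log2 change 2.34) and Tcstv3 (33.5 CPM at 0 h and 6.23 CPM in oocytes, log2 change 2.46) were higher. Eif1a was lower (2.06 CPM at 0 h and 7.33 CPM in oocytes, log2 change -1.72) but lost its call without embryo 1, 2 or 3 and with embryos 2, 3 and 4 alone (adjusted p = 0.07). Of 9 cumulus and granulosa markers tested, 2 were lower, 0 higher and 7 not called, at a median log2 change of -0.20 that was 0.67 with no filter on low counts and 0.85 by DESeq2, which test more of the list. Cyp11a1, which starts steroid synthesis, had 0.628, 0.953, 0, 1.11 and 0.900 CPM at 0 h, against 2.81 to 332 CPM around a median of 182 CPM in oocytes (adjusted p = 0.00139), and limma-voom gave an adjusted p of 0.344. Akr1c18, a progesterone-degrading enzyme, had 2 counts in all embryos and 901 in all oocytes, in which it ranged over 2.35 to 348 CPM with the highest value in oocyte 6. The ratio of oocytes over 0 h was 215, and its 95% interval of 59.2 to 1775 covers counting error only, not the spread between oocytes. The call of Akr1c18 was lost with embryos 2, 3 and 4 alone (adjusted p = 0.0696) and by limma-voom (adjusted p = 0.228). Markers not called went both ways, from Hsd3b1 (-2.56 ± 1.31) to Tnfaip6 (1.81 ± 1.18) and Ptgs2 (1.97 ± 1.39), and the last 2 had their highest 0 h values in embryo 5. Without oocyte 1, 2, 4, 5 or 6 the count lower was 1.

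Over all genes, a CPE by itself did not sort messages by direction. Of 7763 tested genes with a 3′ UTR of at least 40 bases, 6127 had a hexamer. Among these 1160 of the 4327 genes without a CPE were higher (26.8%) and 828 lower, against 24.9% higher and 21.9% lower of the 1406 genes with 1 CPE. Of the 325 genes with 2 CPEs 25.8% were higher and 19.4% lower, and of the 69 with 3 or more 27.5% and 24.6%. The medians of the log2 change were 0.08, 0.06, 0.06 and 0.06. The Spearman correlation of the CPE count with the log2 change was -0.01 across these genes, which are not independent replicates.

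The place of the CPE and the length of the message divided the calls more. Where the nearest CPE started 1 to 20 bases before the hexamer, 19.9% of 482 genes were higher and 25.3% lower. Their median log2 change was -0.07. Among the sites shown above, Dcp1a, Cnot7, Cdc45, Med31 and Nlrp4f of this class were lower, while Bub1b and Zc3h13 were higher. Of other genes named in the text, Pan2, Rbm7, Zfc3h1, Mcm2 and Zbtb2 of this class were higher and Pole3 was lower. Wee2, Gdf9 and Trappc2, also of this class, were not called. At 41 to 60 bases, 31.6% of 237 genes were higher and 14.8% lower, at a median of 0.21. Of the genes named in the text, Plat, H1foo, Ube2t and Pex26 of that class were higher, while Spin1 and Cox5a were lower. Both distance classes thus held messages of both directions. Genes with a hexamer were split by transcript length into 5 classes as well. In the shortest (287 to 1705 bases), 33.9% of genes without a CPE were higher and 22.7% lower, against 14.5% and 37.1% of the 62 genes with 2 or more CPEs. In the fourth class (3606 to 5158 bases), 25.7% of genes without a CPE were higher and 15.1% lower, against 34 higher and 7 lower of the 85 genes with 2 or more. The order by CPE count in the fourth class was thus opposite to that in the shortest. The split also differed with the base composition of the window. In the class of 4 with the least A+T (34.5 to 57.3%), 25.5% of genes without a CPE were higher and 22.0% lower, against 17.3% and 37.2% of the 156 genes with 1 CPE. In the class with the most A+T (up to 89.4%) the shares were 31.7% and 12.5% without a CPE and 29.5% and 15.5% with 1.

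A Pumilio element, counted as TGTANATA on the sense strand of the same window, was held by 5.6% of all windows. Of the 468 tested genes with it and a hexamer 30.1% were higher and 14.7% lower, against 26.0% and 20.3% of the 5659 without it. An AU-rich element, counted as TATTTAT, was held by 5.8% of all windows. With it 26.0% of 415 genes were higher and 18.3% lower, and without it 26.3% and 20.0% of 5712. The longest of the 5 length classes of all transcripts had 29.9% higher and 11.3% lower, while the second (1251 to 2137 bases) had 22.6% and 28.8%. These shares describe the libraries of 2 batches and carry no test.

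**Figure D5:**
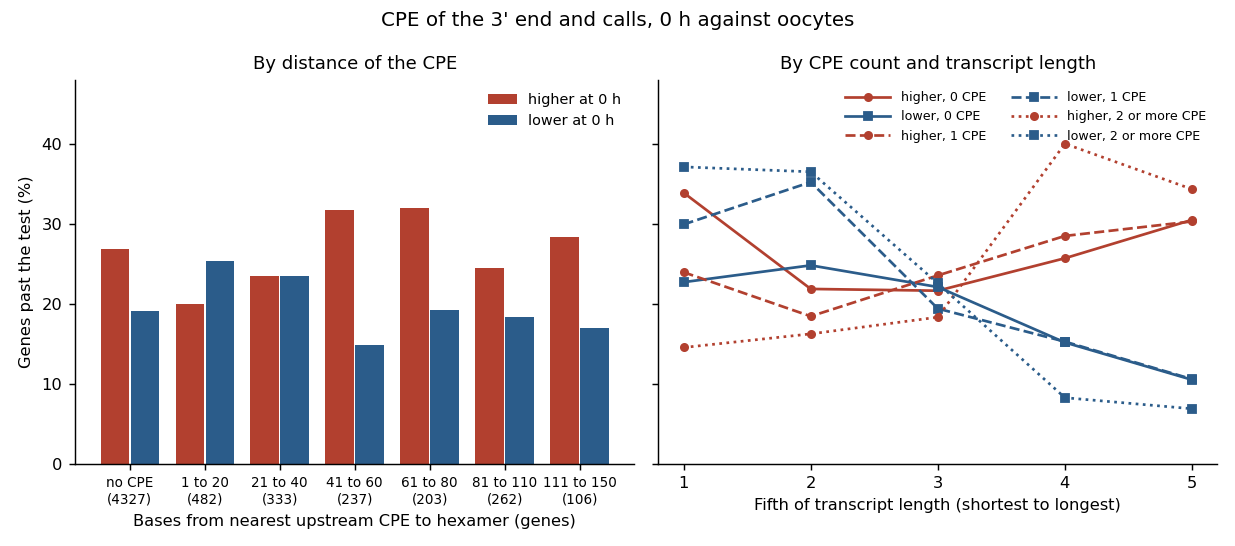
Percent of tested genes with a hexamer that were higher (red) or lower (blue) at 0 h (y axis), by the distance in bases from the nearest upstream CPE to the hexamer with gene numbers in parentheses (left), and by CPE count within 5 classes of transcript length (right). With 2 or more CPEs, 14.5% were higher and 37.1% lower in the shortest class, whereas 34 of 85 were higher and 7 lower in the fourth.

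Later embryos went through cDNA synthesis in the same cohort as those of 0 h. Means of 5, 5, 3 and 5 embryos collected at 0, 2, 6 and 12 h are given in that order, without a test. The genes were picked after their values were seen, and other collection times are left out. Elobl averaged 3312, 1002, 164 and 119.2 CPM, beside 88.5 CPM in oocytes. Ndufa5 had means of 145, 67.9, 10.5 and 3.74 CPM, beside 4.92 CPM in oocytes. For Mos the means were 935, 1149, 474 and 96.9 CPM, beside 110.1 CPM in oocytes. For these 3 messages the 12 h mean lay within 1.5 times the oocyte mean. Plat was highest at 2 h among these times, with 1938, 3063, 1667 and 446 CPM, beside 350.0 CPM in oocytes. Zp2 averaged 1022, 262, 111.6 and 112.1 CPM, beside 88.8 CPM in oocytes. Of the messages lower at 0 h, Btg4 averaged 6253, 6909, 10529 and 11361 CPM, beside 9588 CPM in oocytes. Cdc45 had 42.9, 109.2, 115.9 and 199.8 CPM, beside 183 CPM in oocytes. Both were at or above the oocyte mean by 12 h. Dcp1a had 445, 454, 388 and 432 CPM, beside 939.9 CPM in oocytes. The median summed level of the complex I list, with Ndufa4, was 2415, 1469, 1145 and 960.3 CPM, beside 999.8 CPM in oocytes. That of the mitochondrial genome was 6206, 3999.9, 4457 and 11887 CPM, beside 14804 CPM in oocytes. The messages known to gain poly(A) or translation summed to 28454, 33681, 42537 and 45108 CPM, beside 37457 CPM in oocytes. The embryos of 6 h have a suffix b in their titles, as those of 0, 2 and 12 h do not, and the labels do not say what it marks.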

How the data were processed

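Expected counts of 55401 genes and 873 repeat families in 96 libraries were deposited by the authors. The submitters' processing notes name Trimmomatic 0.39, STAR, featureCounts and the mm10 build, while options were not given in the sources used here. In the 13 libraries 25.6% of non-zero gene values were not whole, so counts were rounded, and overlapping, antisense or near-identical genes are uncertain. Repeat rows were left out of totals. Symbols came from GENCODE M21 (55141 identifiers matched, 260 had none). The 3′ ends were read from its annotated transcripts, of GRCm38.

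The test was edgeR 4.0.16 in R 4.3.3 (filterByExpr, TMM, robust quasi-likelihood F test, Benjamini-Hochberg over all 9561 genes, threshold 0.05) on the 13 libraries alone. Log2 changes are given ± SE. The design had assumed whole counts. The script was tested on simulated data. Motif classes and gene lists were counted without a test.

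The members and lists were chosen with earlier results of these data known. Of 78 classes with at least 8 members tested, the 8 with the largest share called in each direction were described, with up to 4 members of lowest adjusted p in the main direction and 2 in the other. Also named were all members of both lists of poly(A)-regulated messages, the 10 largest changes each way among genes of at least 500 CPM in the higher group, and the 6 smallest among genes of at least 200 CPM in both groups. The PRAME list was trimmed to the family after values were seen. Genes in the account of later hours were chosen after their values were seen. A gene that the rule names is not reported here.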

Additional observations from a re-analysis of the deposited data

Results flagged for a closer look

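Libraries that stood apart from the rest of their group were sought with Dixon's test at the 95% level, which chance passes in about 1 group in 20. Of 334 groups of values of named genes 15 passed (4.5%), and of 54 groups of summed list levels 6 passed. Cumulus and granulosa markers summed to 1004 CPM in 0 h embryo 5, against 181 to 370 CPM in the other embryos. Blood and oviduct markers summed to 2498 CPM in 0 h embryo 1, against 67.6 to 502 CPM in the other embryos. The same sum was 1099 CPM in oocyte 8, where Lyz2 had 933 CPM, against 59.1 to 191 CPM in the other oocytes. Sperm and spermatid markers summed to 125.5 CPM in oocyte 6, which had the fewest counts. Complex III genes summed to 475.9 CPM in oocyte 2, and peroxisome genes to 1117 CPM in oocyte 6, each the highest oocyte.

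Among the genes, oocyte 8 was the highest oocyte for Cox6b1 (48.3 CPM) and Ndufa1 (32.5 CPM) and the lowest for Cct8 (268 CPM). Oocyte 8 was also highest for Ube2t (107.8 CPM) and lowest for Wee2 (508.4 CPM). Oocyte 7 was highest for Sebox (148 CPM) and Pabpc1l (10.1 CPM) and lowest for Bub1b (345 CPM). Oocyte 2 stood apart for Phyh (30.02 CPM), and oocyte 6 for Akr1c18 (348 CPM). Of the embryos, embryo 1 stood apart for Rfc3 (30.8 CPM), embryo 2 for Gm37240 (273 CPM), embryo 3 for Tpx2 (443 CPM), embryo 4 for Mos (730.4 CPM) and embryo 5 for Zfc3h1 (62.1 CPM). Mos and Tpx2 were lowest in these embryos, and both were still above every oocyte. The groups of Ndufa1, Cox6b1, Ube2t, Pabpc1l, Rfc3, Sebox and Bub1b did not overlap with these libraries included.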

How the results depend on the processing

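The counts of genes called kept within 1.5 times of those reported under 23 of 25 alternatives, among them library-size scaling, RLE size factors, other filters, DESeq2 1.42.0 (2492 higher and 2301 lower), limma-voom and each library left out (2098 to 2410 higher and 1769 to 2110 lower). The exceptions were the fit of all 96 libraries (944 higher and 694 lower, of which 944 and 692 were also called in the fit reported), for which the cause was not tested, and the test against a 2-fold change (664 higher and 212 lower), which asks for more by construction. The median of all genes moved to -0.21 with no filter on low counts. Samples were not paired by the replicate numbers that the titles share. Same-numbered deviations correlated at -0.10 to 0.13, which cannot exclude a shared female, as no differently numbered pairs were computed beside them. With a replicate block 2026 genes were higher and 1637 lower. Alternatives chosen after seeing the data were TMM before the filter (2198 higher and 2143 lower) and 0 h embryos 2, 3 and 4 alone (2154 higher and 1886 lower), under which none of the 33 list counts above 3 moved by over 1.5 times. Of the list medians under each alternative 595 moved by less than the spread and 53 by more, and 5 lists had a median that changed sign under some alternative: cytoplasmic polyadenylation factors, decapping and P-body proteins, the two-cell program, and the cumulus and the blood markers. None of 168 named genes reversed its direction. Of 153 called, 79 lost the call under some alternative, but 11 did so under one other than the 2-fold test and the fit of all 96 libraries. Gene totals of 565920 to 2732505 counts limit the precision of genes near the filter.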
